A study of Mus musculus with 12 samples.

Results

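The genes described here are 9 chemokine receptors, Ccr1, Ccr2, Ccr6, Ccr7, Cx3cr1, Cxcr2, Cxcr3, Cxcr4 and Cxcr5, taken by symbol from the 40760 genes of the deposited tables. Each symbol matched 1 row. RNA was sequenced from Cd140a+ (Pdgfra+) cells that were sorted from mouse lung by flow cytometry, in 12 libraries that fall into 4 groups of 3: WT vehicle and WT bleo, Pear1-/- vehicle and Pear1-/- bleo. All mice were male, and the study's methods give a C57BL/6 background and an age of 8 to 12 weeks unless stated otherwise. WT bleo and Pear1-/- bleo mice received bleomycin (bleo), a DNA-damaging drug that injures the lung and leads to fibrosis, by intratracheal aerosol, and the other groups received the vehicle. The dose and the day of these libraries are not given in the sources used here. Pear1-/- is a whole-body knockout-first allele, in which a cassette in an intron traps the transcript, so that the loss is not limited to the sorted cells. Neither the labels nor the methods say how many mice stand behind a library, so p-values measure the spread between these samples, which may be technical.

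Chemokine receptors are G protein-coupled receptors that steer migrating cells along gradients of small secreted proteins, the chemokines. Most of them are known from leukocytes, and each marks a different set of them: Ccr2 and Cx3cr1 monocytes and macrophages, Cxcr2 neutrophils, Ccr7 and Cxcr5 lymphocytes and dendritic cells that home to lymphoid tissue. In the injured lung, Ccr2 is known for the recruitment of monocytes from blood, and Cxcr4 binds the chemokine Cxcl12, which mesenchymal cells release.

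The receptors were read against 3 facts of these libraries. First, Pear1 counts, taken over the whole gene, were not lower past the threshold in the libraries labelled Pear1-/-. They lay between 519 and 576 normalized counts (counts divided by the size factor of the library) in WT vehicle and between 501 and 547 in Pear1-/- vehicle. That difference did not pass (log2 fold change -0.08 ± 0.077 SE, edgeR adjusted p = 0.490). Pear1 was higher in Pear1-/- bleo than in WT bleo (0.48 ± 0.081 SE, edgeR adjusted p = 7.54e-05). Whether reads of a trapped transcript account for these counts was not tested, so every genotype named here is the label of the library. Second, WT vehicle replicate 2 stood apart from replicates 1 and 3 of its group, with a chi-square of the counts per degree of freedom of 21.2 and 21.8, against 1.73 to 2.67 from the Pear1-/- vehicle libraries. Receptor calls that rest on it, and the values below that it moved most, are given with and without it. Last, the sorted cells carried leukocyte RNA in every library. The summed level of 7 leukocyte markers, none at 0 in any group, in CPM (counts scaled to the library total) was 1867 to 2238 with vehicle in WT and 2206 to 2263 in Pear1-/-, and after bleo 6370 to 6552 in WT and 3259 to 3310 in Pear1-/-. In the same order, 6 fibroblast markers summed to 14389 to 15067, 14981 to 15261, 12022 to 12136 and 31963 to 32720 CPM. The sum hides members that went apart: 2 of the 6 were higher and 4 lower after bleo in WT, and 3 were higher and 3 lower in Pear1-/-. The sort marker Pdgfra was among the lower ones in both (log2 fold change -1.74 and -0.80). In bulk samples, fewer cells of a type and less RNA per cell cannot be told apart.

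To show where the receptor genes start, the 250 bases before the RefSeq start site (build GRCm38.p6) are given for 3 receptors that stand for 3 patterns described below: Ccr1, which was higher after bleo in both genotypes, Cxcr2, which was lower after bleo in both, and Cxcr4, which rose past the threshold in WT. The sequences run 5' to 3' on the strand of the gene, at chr9:123968693-123968942 (minus strand), chr1:74153744-74153993 (plus strand) and chr1:128592300-128592549 (minus strand). Capitals mark matches to GAGGAA on either strand, the core that factors of the ETS family such as PU.1 can bind.
Ccr1: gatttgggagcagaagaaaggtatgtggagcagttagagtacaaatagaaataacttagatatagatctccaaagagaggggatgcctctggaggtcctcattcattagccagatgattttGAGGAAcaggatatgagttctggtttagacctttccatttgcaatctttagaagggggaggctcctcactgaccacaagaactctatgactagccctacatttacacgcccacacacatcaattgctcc
Cxcr2: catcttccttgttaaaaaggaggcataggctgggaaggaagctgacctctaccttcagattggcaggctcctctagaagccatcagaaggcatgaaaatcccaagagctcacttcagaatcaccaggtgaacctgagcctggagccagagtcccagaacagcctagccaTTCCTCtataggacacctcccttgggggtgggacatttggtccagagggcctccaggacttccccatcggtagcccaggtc
Cxcr4: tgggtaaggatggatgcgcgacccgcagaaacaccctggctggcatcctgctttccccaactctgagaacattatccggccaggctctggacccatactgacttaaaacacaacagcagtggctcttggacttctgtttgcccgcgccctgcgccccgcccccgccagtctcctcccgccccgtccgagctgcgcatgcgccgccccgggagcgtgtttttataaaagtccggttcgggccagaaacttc
RefSeq windows were found for 7 of the 9 receptors, 8 windows in all since Ccr6 has a pair of start sites. A match to GAGGAA was present in 4 of the 8 windows (Ccr1, the upstream window of Ccr6, Cxcr2 and Cxcr3), against 23.3% of the 32851 promoter windows of the same length. In the Cxcr3 window 122 of the 250 bases, the match among them, lie in an exon of GENCODE M21. None of the 8 windows held TGANTCA (AP-1), TTGCNNAA (C/EBP) or the NF-kB letters GGG, any 2 bases and TTTCC on either strand, which 6.75%, 9.56% and 1.41% of all windows hold. Since GAGGAA alone was found, no matches to different motifs overlapped. The windows of Ccr2 and Cx3cr1 are not printed because 233 and 250 of their bases lie in exons of the GENCODE M21 annotation.

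Within vehicle libraries the receptors differed widely in level. Levels were compared between genes as CPM per kb of exon, with exon lengths from GENCODE M21. These lengths join the exons of all annotated transcripts: 6760 bases for Ccr2, 4505 for Cx3cr1, 2833 for Ccr1 and 1978 for Ccr7. The order of genes depends on them, and which transcripts were present was not tested. Ccr7 (ENSMUSG00000037944, chr11:99144196-99155077, minus strand), the receptor for Ccl19 and Ccl21 that guides dendritic cells and lymphocytes to lymph nodes, was the highest of the 9 on this scale in all 4 groups. It stood at 149 ± 10.5 CPM per kb with vehicle in WT and 157 ± 2.93 in Pear1-/-, and at 149 ± 2.15 after bleo in WT and 112 ± 1.19 in Pear1-/- (SD, n = 3). Ccr1 came next in both vehicle groups, at 27.9 ± 8.24 and 38.9 ± 3.86 CPM per kb. The ranges of Ccr7 and Ccr1 did not overlap in any group in which they were neighbours. Below them in WT vehicle, Cxcr4, Ccr2, Cx3cr1, Cxcr5, Cxcr2, Cxcr3 and Ccr6 followed from 8.04 down to 2.23 CPM per kb, and the range of each overlapped that of the next.

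After bleo the order was different. In WT bleo, Ccr7 was followed by Cx3cr1 at 104 ± 0.804 CPM per kb, Ccr2 at 76.8 ± 1.68 and Ccr1 at 70.5 ± 3.24, with no overlap between neighbours. In normalized counts, which are not divided by length, the WT bleo means were 4618 for Ccr2, 4189 for Cx3cr1 and 2623 for Ccr7. In Pear1-/- bleo, Ccr7 was followed by Ccr1 at 67.6 ± 2.07 CPM per kb, ahead of Ccr2 at 27.1 ± 0.605 and Cx3cr1 at 25.5 ± 1.07, whose ranges overlapped. Cxcr2 was the lowest of the 9 in both bleo groups, at 0.761 ± 0.0440 and 0.742 ± 0.231 CPM per kb. As shares, Ccr2 and Cx3cr1 held between 2.36% and 4.04% and between 2.44% and 3.52% of the summed per-length level of the 9 receptors in WT vehicle, and between 16.8% and 17.6% and between 23.4% and 23.5% in WT bleo. In Pear1-/- bleo their shares were 10.1% to 10.6% and 9.57% to 10.3%. These shares rest on the same exon lengths.

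**Figure D1:**
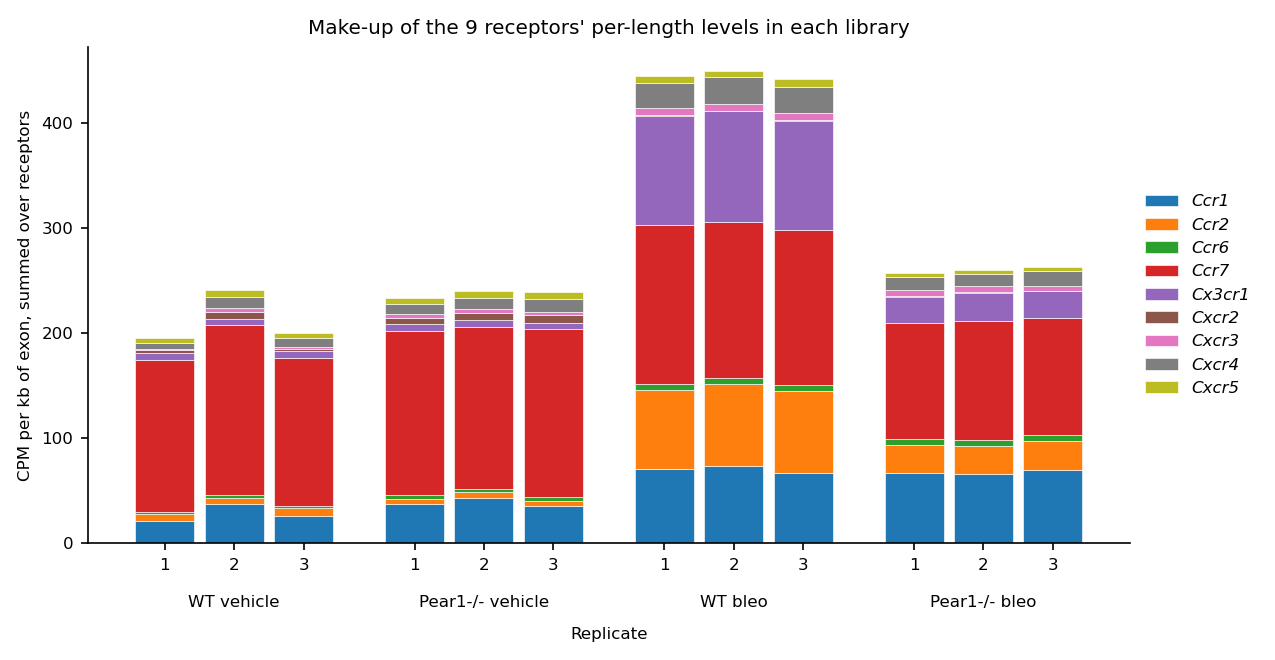
Stacked bars of the level of each receptor in CPM per kb of exon (vertical axis) in each of the 12 libraries (horizontal axis, replicates 1 to 3 of each group). The bars of the 3 WT bleo libraries reach 442 to 450 CPM per kb, against 258 to 263 in Pear1-/- bleo, and most of that gap is Cx3cr1 (purple) and Ccr2 (orange).

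The first comparison asks what bleo changed in WT cells. Of the 9 receptors, 6 were higher in WT bleo than in WT vehicle and 1 was lower, and all 7 also differed by more than 2-fold. Of all 17418 genes tested, 67.9% passed the threshold (adjusted p under 0.05) in this comparison, 31.4% higher and 36.5% lower. With the 2-fold limit 33.8% passed, and 10.5% were higher by that much. The median log2 fold change of the 9 was 1.40, against -0.07 for all genes tested.

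Ccr2 (ENSMUSG00000049103, chr9:124101950-124113557, plus strand), the receptor for Ccl2, had 389, 356 and 439.6 normalized counts with vehicle in WT and 294, 330.3 and 287 in Pear1-/-, and after bleo 4503, 4683 and 4667 in WT and 1648, 1601 and 1665 in Pear1-/-. The bleo groups were far above both vehicle groups, and the Pear1-/- bleo libraries all lay between vehicle and WT bleo. Its mean rose 11.7-fold in WT after bleo (log2 fold change 3.56 ± 0.086 SE, edgeR adjusted p = 3.98e-17) and 5.39-fold in Pear1-/- (2.43 ± 0.084 SE, edgeR adjusted p = 1.26e-14).

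Cx3cr1 (ENSMUSG00000052336, chr9:119901616-120069879, minus strand), the receptor for the membrane-bound chemokine Cx3cl1, had 252, 246 and 213 normalized counts with vehicle in WT and 258, 262 and 248 in Pear1-/-, and after bleo 4173, 4229 and 4165 in WT and 988, 1080.5 and 1019 in Pear1-/-. No bleo library overlapped a vehicle library, and the WT bleo values were the highest by a wide margin. The rise was 17.7-fold in WT (log2 fold change 4.16 ± 0.081 SE, edgeR adjusted p = 3.21e-18) and 4.03-fold in Pear1-/- (2.01 ± 0.076 SE, edgeR adjusted p = 4.29e-14).

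Ccr1 (ENSMUSG00000025804, chr9:123962124-123968692, minus strand), which binds Ccl3 and Ccl5 among others and is found on monocytes and neutrophils, had 480.2, 968 and 588 normalized counts with vehicle in WT and 991, 1135 and 959 in Pear1-/-, and after bleo 1782, 1859 and 1693 in WT and 1678, 1687 and 1782 in Pear1-/-. The bleo libraries lay above all vehicle libraries, and the bleo groups of both genotypes overlapped. Replicate 2 of WT vehicle lay within the Pear1-/- vehicle range. Ccr1 rose after bleo in WT (log2 fold change 1.40 ± 0.205 SE, edgeR adjusted p = 0.000157; 1.81 without WT vehicle replicate 2) and in Pear1-/- (0.74 ± 0.200 SE, edgeR adjusted p = 0.00864), where the call was lost without Pear1-/- vehicle replicate 3 (edgeR adjusted p = 0.0552).

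Markers of the cells these receptors are known from went different ways. The summed level of 8 monocyte and macrophage markers was 1995 to 2202 CPM with vehicle in WT and 2157 to 2249 in Pear1-/-, and after bleo 11960.4 to 12120.4 in WT and 5509.6 to 5666 in Pear1-/-. All 8 were higher in WT bleo than in WT vehicle, and all 8 were lower in Pear1-/- bleo than in WT bleo. By contrast, 4 markers of non-classical monocytes other than Cx3cr1 summed to 3261 to 3515 CPM in WT vehicle and 2029 to 2101 in WT bleo, with 3 of the 4 lower and none higher (2 lower and 1 higher without WT vehicle replicate 2). In WT vehicle this sum was above that of the 7 leukocyte markers (1867 to 2238 CPM), and which cells it came from was not tested. Its members differed, with a log2 fold change of -0.66 for Nr4a1 and -0.0056 for Ace. A list of 4 classical monocyte markers, the blood monocytes known for Ccr2, summed to 337 to 485 CPM with vehicle in WT and 467 to 477 in Pear1-/-, and after bleo to 487 to 518 in WT and 700.4 to 721 in Pear1-/-. Between the bleo groups 2 of these 4 were higher in Pear1-/- (F13a1 and Chil3) and 1 was lower, with a median log2 fold change of 0.34, while Ccr2 was lower. Of 7 neutrophil markers, 5 were lower after bleo in each genotype, while Ccr1 rose. None of the 7 was higher, except for 2 in WT without WT vehicle replicate 2. The part of these cells in the receptor differences was not tested.

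Cxcr4 (ENSMUSG00000045382, chr1:128588199-128592293, minus strand), the receptor for Cxcl12, had 77.6, 175 and 122 normalized counts with vehicle in WT and 152, 176 and 203 in Pear1-/-, and after bleo 373, 408 and 407 in WT and 198, 199 and 223 in Pear1-/-. WT bleo stood alone above the rest, and the groups of Pear1-/- with and without bleo overlapped. Cxcr4 rose in WT (log2 fold change 1.66 ± 0.184 SE, edgeR adjusted p = 1.42e-06; 2.05 without WT vehicle replicate 2), while in Pear1-/- the difference was 0.23 with a 95% interval from -0.16 to 0.62 (edgeR adjusted p = 0.284).

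Cxcr2 (ENSMUSG00000026180, chr1:74153989-74161246, plus strand), the receptor through which neutrophils follow Cxcl1 and Cxcl2, had 52.1, 198 and 46.9 normalized counts with vehicle in WT and 161, 183 and 208 in Pear1-/-, and after bleo 19.3, 21.4 and 21.3 in WT and 26.6, 19.8 and 14.3 in Pear1-/-. It was the only one of the 9 that fell after bleo in both genotypes, with no overlap with vehicle in either. The log2 fold change was -2.27 ± 0.595 SE in WT (edgeR adjusted p = 0.00747) and -3.16 ± 0.551 SE in Pear1-/- (edgeR adjusted p = 0.000801). Without WT vehicle replicate 2 the WT value was -1.18 (edgeR adjusted p = 4.67e-05). The same replicate was high for neutrophil markers: their summed level was 642, 1811 and 639 CPM in the 3 WT vehicle libraries, 1709 to 2061 in Pear1-/- vehicle, 184 to 198 in WT bleo and 289 to 299 in Pear1-/- bleo, and 5 of the 7 markers were lower after bleo in each genotype. The part of neutrophil RNA in the Cxcr2 difference was not tested.

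The receptors best known from lymphocytes went different ways. Ccr6 (ENSMUSG00000040899, chr17:8236043-8257141, plus strand), the receptor for Ccl20 on B cells and some T cells, had 29.1, 79.1 and 27.5 normalized counts with vehicle in WT and 74.8, 70.5 and 79.7 in Pear1-/-, and after bleo 119, 115 and 118 in WT and 115, 125 and 109 in Pear1-/-. The bleo groups overlapped each other and lay above all vehicle libraries. Ccr6 rose in WT (log2 fold change 1.36 ± 0.258 SE, edgeR adjusted p = 0.000210; 2.13 without WT vehicle replicate 2). In Pear1-/- the value was 0.64 ± 0.235 SE (edgeR adjusted p = 0.0270), and this call was lost in each of the 6 fits that left out 1 library of those groups, where the edgeR adjusted p was between 0.0651 and 0.126.

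Cxcr3 (ENSMUSG00000050232, chrX:101731535-101734269, minus strand), the receptor of activated T cells and natural killer (NK) cells for Cxcl9 and Cxcl10, had 23.0, 54.8 and 29.8 normalized counts with vehicle in WT and 69.1, 61.2 and 57.8 in Pear1-/-, and after bleo 112, 102 and 101 in WT and 86.1, 84.2 and 74.3 in Pear1-/-. The 4 groups did not overlap. Cxcr3 rose in WT (log2 fold change 1.53 ± 0.216 SE, edgeR adjusted p = 4.66e-06; 2.06 without WT vehicle replicate 2). In Pear1-/- the value was 0.38, with a 95% interval from -0.04 to 0.80 (edgeR adjusted p = 0.102). T cell and NK cell markers moved the other way: 7 of 8 and 5 of 5 were lower in WT bleo than in WT vehicle, with none higher (5 of 8 and 5 of 5 without WT vehicle replicate 2).

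Ccr7 had 2333, 2949.7 and 2253 normalized counts with vehicle in WT and 2859.7, 2838 and 3011 in Pear1-/-, and after bleo 2665, 2617 and 2587 in WT and 1945, 2005 and 1987 in Pear1-/-. The WT groups overlapped, and the Pear1-/- bleo libraries were below all others. The WT difference after bleo was 0.07, with a 95% interval from -0.10 to 0.25 (edgeR adjusted p = 0.437), but without WT vehicle replicate 2 it was 0.27 (edgeR adjusted p = 1.99e-05). In Pear1-/- Ccr7 fell by 0.55 on the log2 scale (SE 0.082, edgeR adjusted p = 1.28e-05). All 8 T cell markers were lower in that comparison, with a median log2 fold change of -1.63, and their summed level was 229 to 238 CPM in Pear1-/- vehicle and 74.2 to 84.1 in Pear1-/- bleo. Of 7 dendritic cell markers, 4 were higher and 3 lower, and their sum was 197 to 206 CPM in Pear1-/- vehicle and 399 to 408 in Pear1-/- bleo. This sum also hides members that went apart: in the same order, mean normalized counts were 166 and 128 for Flt3 and 129 and 91.7 for Xcr1. The part of these cells in the Ccr7 difference was not tested.

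Cxcr5 (ENSMUSG00000047880, chr9:44511787-44561877, minus strand), the receptor with which B cells follow Cxcl13 into follicles, had 143, 218 and 128 normalized counts with vehicle in WT and 184, 207 and 222 in Pear1-/-, and after bleo 196, 182 and 216 in WT and 122, 106 and 119 in Pear1-/-. As for Ccr7, only the Pear1-/- bleo group stood below all the other libraries. The WT difference was 0.28, with a 95% interval from -0.04 to 0.60 (edgeR adjusted p = 0.114), and 0.62 without WT vehicle replicate 2 (edgeR adjusted p = 1.80e-05). In Pear1-/- Cxcr5 fell by 0.82 on the log2 scale (SE 0.155, edgeR adjusted p = 0.000173). Of 8 B cell markers, 7 were higher in WT bleo than in WT vehicle and none was lower, whereas 6 were lower in Pear1-/- bleo than in Pear1-/- vehicle and none was higher.

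**Figure D2:**
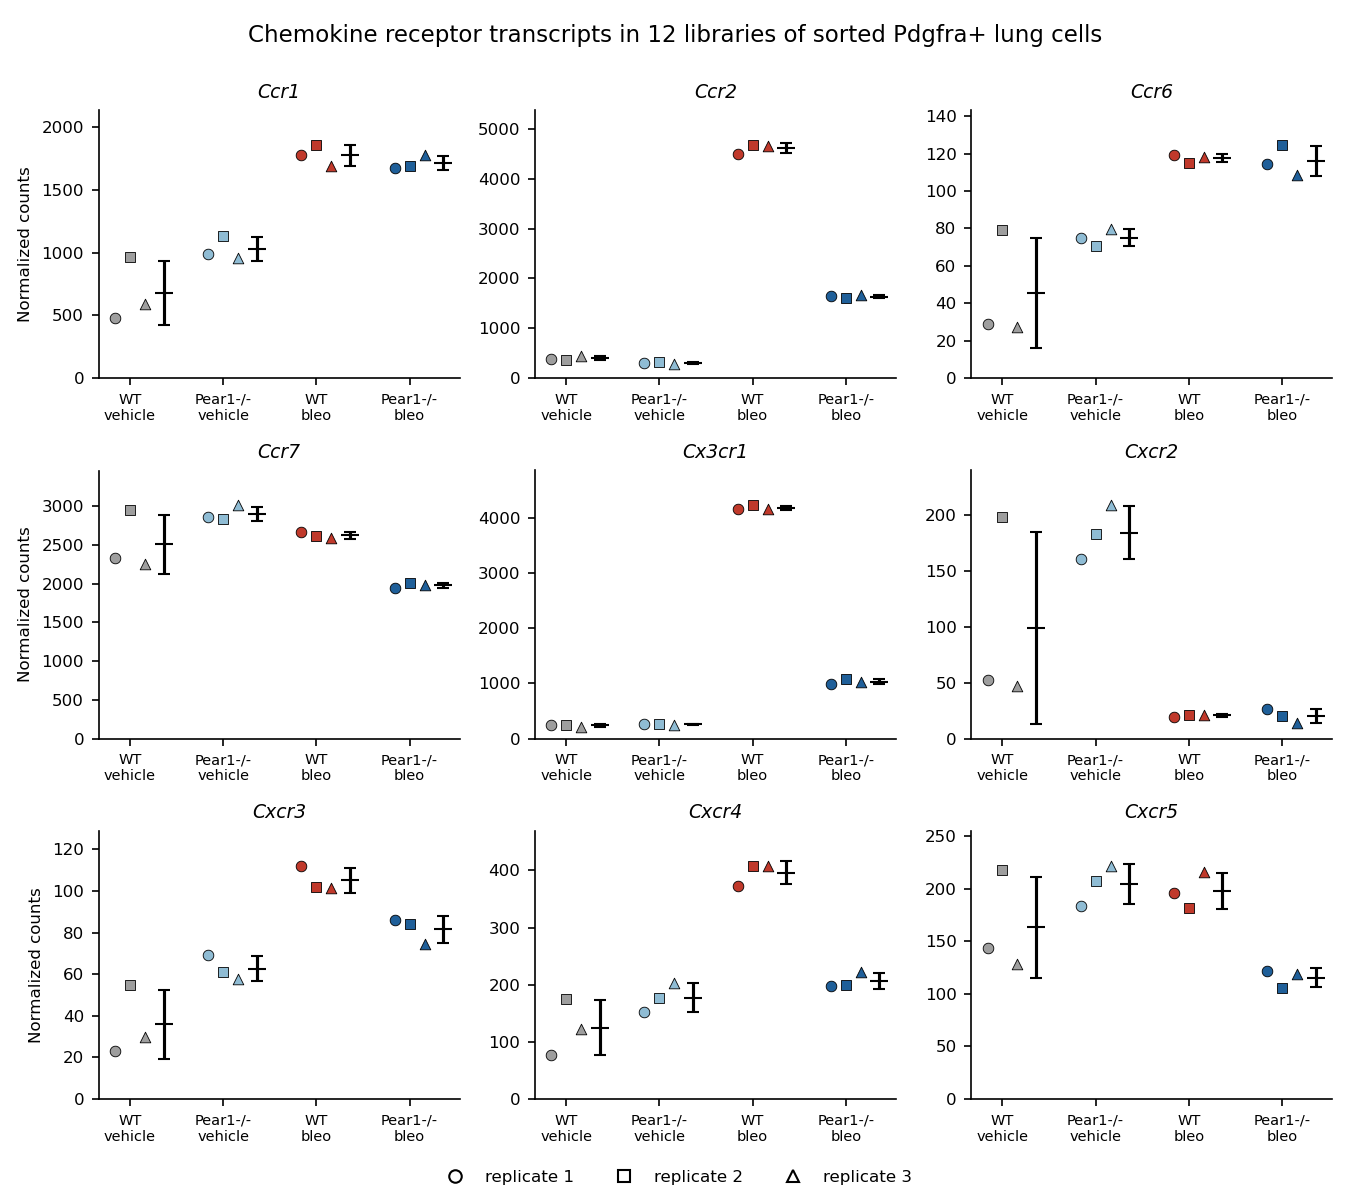
Normalized counts (vertical axes, linear from 0) of each receptor in the 12 libraries, by group (horizontal axes), where symbols are replicates and bars are the mean ± SD of 3. WT vehicle replicate 2 (grey square) lies near the Pear1-/- vehicle libraries for Ccr1, Ccr6, Ccr7, Cxcr2, Cxcr4 and Cxcr5, and Ccr2 and Cx3cr1 stand highest in WT bleo.

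The second comparison asks the same of Pear1-/- cells. Of the 9 receptors, 4 were higher after bleo (Ccr1, Ccr2, Ccr6 and Cx3cr1), 3 were lower (Ccr7, Cxcr2 and Cxcr5) and 2 did not pass (Cxcr3 and Cxcr4), against 62.2% of all genes tested that passed in either direction (29.1% higher and 33.1% lower). Without Pear1-/- vehicle replicate 3 the count of 4 was 2, since Ccr1 and Ccr6 were lost, and without any 1 of the other 5 libraries of these groups it was 3, since Ccr6 was lost. Past 2-fold were 3 of them, Ccr2, Cx3cr1 and Cxcr2, against 27.7% of all genes tested.

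The third comparison sets the genotypes side by side after bleo. Of the 9 receptors, 5 were lower in Pear1-/- bleo than in WT bleo and none was higher. Of all genes tested, 46.1% passed in this comparison, 24.0% in the lower direction. Cx3cr1 was 4.07-fold lower in mean normalized counts (log2 fold change -2.04 ± 0.072 SE, edgeR adjusted p = 1.27e-13) and Ccr2 was 2.82-fold lower (-1.51 ± 0.078 SE, edgeR adjusted p = 1.61e-11). These were the 2 receptors past 2-fold, against 8.80% of all genes tested that were lower by that much. Cxcr4 was lower by -0.95 ± 0.170 SE on the log2 scale (edgeR adjusted p = 0.000315), Cxcr5 by -0.79 ± 0.155 SE (edgeR adjusted p = 0.000383) and Ccr7 by -0.42 ± 0.082 SE (edgeR adjusted p = 0.000352). The groups did not overlap for these 5 genes, but the share of all genes for which this holds in normalized counts was not taken.

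The other 4 receptors did not pass in this comparison. The 95% interval of the log2 difference ran from -0.51 to 0.38 for Ccr1, from -0.51 to 0.44 for Ccr6, from -0.77 to 0.02 for Cxcr3 and from -1.71 to 1.65 for Cxcr2. For Cxcr2, with 15 to 30 counts in each bleo library, a difference of 2-fold either way lay within the interval. For Cxcr3 the groups did not overlap, and the difference passed when the fit was limited to the 2 groups compared (edgeR adjusted p = 0.00865).

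Whether bleo acted differently in the genotypes was tested as an interaction, the log2 fold change after bleo in Pear1-/- minus that in WT. It passed for 6 of the 9 receptors, all negative, against 37.1% of all genes tested that passed and 19.3% that were negative. The largest was that of Cx3cr1, -2.14 ± 0.106 SE (edgeR adjusted p = 8.18e-11), followed by Cxcr4 with -1.43 ± 0.259 SE (edgeR adjusted p = 0.000573). For Ccr1 the value was -0.66 (95% interval from -1.29 to -0.02, edgeR adjusted p = 0.0995), for Ccr6 -0.72 (from -1.47 to 0.03, edgeR adjusted p = 0.123) and for Cxcr2 -0.89 (from -2.87 to 1.09, edgeR adjusted p = 0.464). Without WT vehicle replicate 2 these were -1.09, -1.51 and -2.00, that of Cxcr3 was -1.70 and that of Cxcr4 -1.84. All 9 receptors then passed, against 46.4% of the 20405 genes tested in that fit.

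**Figure D3:**
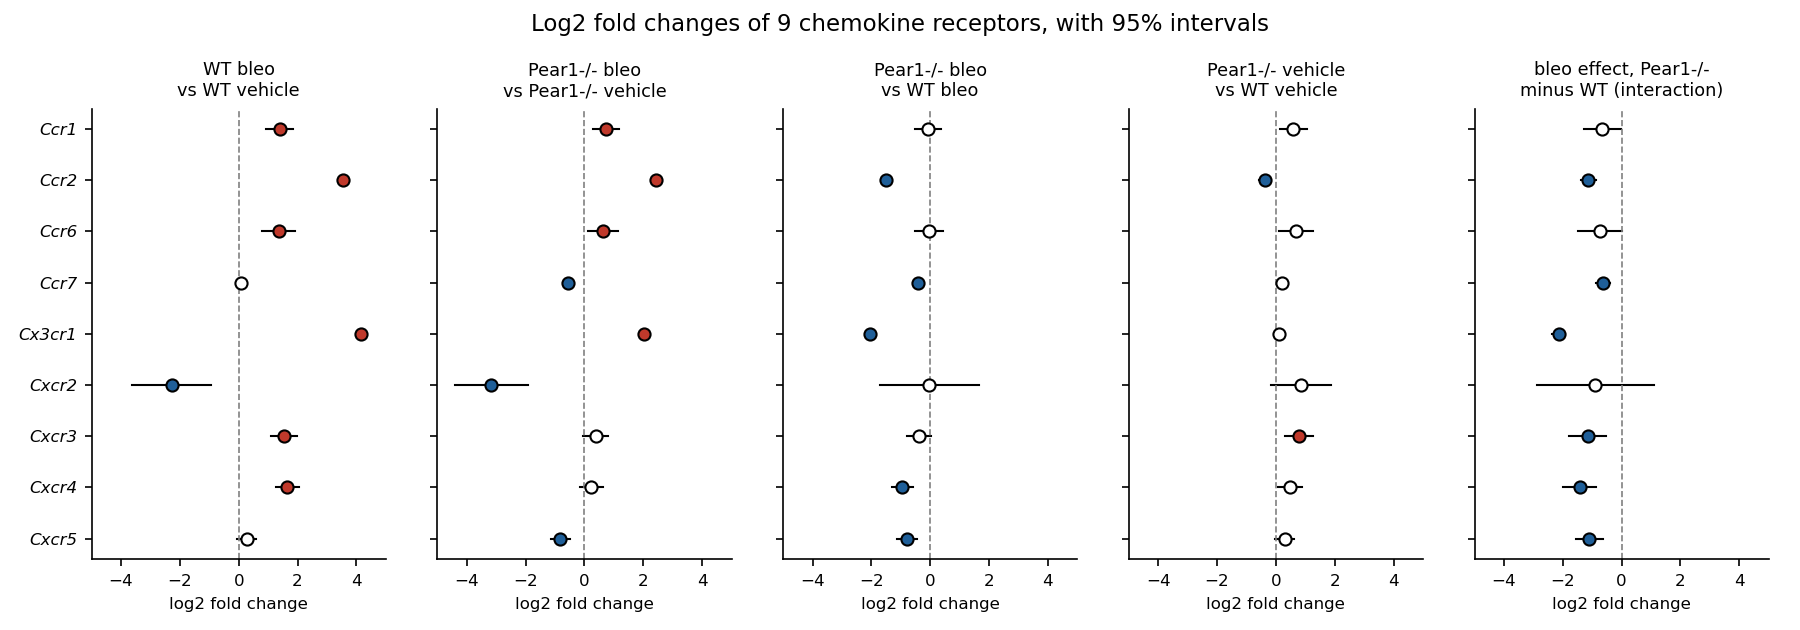
Log2 fold changes (horizontal axes) of the 9 receptors (vertical axis) in the 4 comparisons and the interaction, with bars for the 95% interval of the edgeR fit. Filled points passed the threshold, red where higher and blue where lower, and in the comparison of the bleo groups 5 points are blue and none is red.

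Between the vehicle groups, 2 receptors passed, against 7.24% of all genes tested (1.95% higher and 5.29% lower). Ccr2 was lower in Pear1-/- vehicle (log2 fold change -0.38 ± 0.084 SE, edgeR adjusted p = 0.0296) and Cxcr3 was higher (0.78 ± 0.229 SE, edgeR adjusted p = 0.0471; 1.31 without WT vehicle replicate 2). The groups did not overlap for either gene, again with no share of all genes taken on this scale. This count rests on single libraries: it was 0 by edgeR without any 1 of the other 5 vehicle libraries (2 to 7 at an unadjusted p under 0.05), and 8 without WT vehicle replicate 2 (against 55.3% of the genes tested in that fit), when Cx3cr1 alone did not pass (edgeR adjusted p = 0.0547).

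To set the receptors against the leukocyte RNA of each library, their counts were divided by those of Ptprc, which encodes the leukocyte antigen CD45. Ptprc itself had 7542 to 7727 normalized counts in WT bleo and 3241 to 3448 in Pear1-/- bleo. These ratios are a description, with no test. Ccr2 had 59.4 to 61.9 counts per 100 Ptprc counts in WT bleo and 47.8 to 49.4 in Pear1-/- bleo. Cx3cr1 had 54.7 to 55.2 in WT bleo and 28.7 to 33.3 in Pear1-/- bleo. These were the 2 receptors whose ratio was lower in all Pear1-/- bleo libraries, against 3.18% of all genes tested.

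The ratios of the other 7 receptors were higher in Pear1-/- bleo without overlap, against 79.8% of all genes tested. Ccr1 had 22.4 to 24.1 per 100 Ptprc counts in WT bleo and 48.7 to 52.3 in Pear1-/- bleo, and Ccr7 had 33.9 to 35.2 and 56.4 to 61.9. Between WT bleo and WT vehicle, the ratio was higher without overlap for Ccr2, Cx3cr1 and Cxcr4, against 4.37% of all genes tested. It was lower for Ccr7, Cxcr2 and Cxcr5, against 82.0%. Ccr1, Ccr6 and Cxcr3, which rose in normalized counts, overlapped on this scale. In Pear1-/- the ratio after bleo was higher without overlap for 5 receptors and lower for 3, against 39.8% and 29.9% of all genes tested, and between the vehicle groups 1 was higher and 1 lower, against 2.52% and 13.3%.

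**Figure D4:**
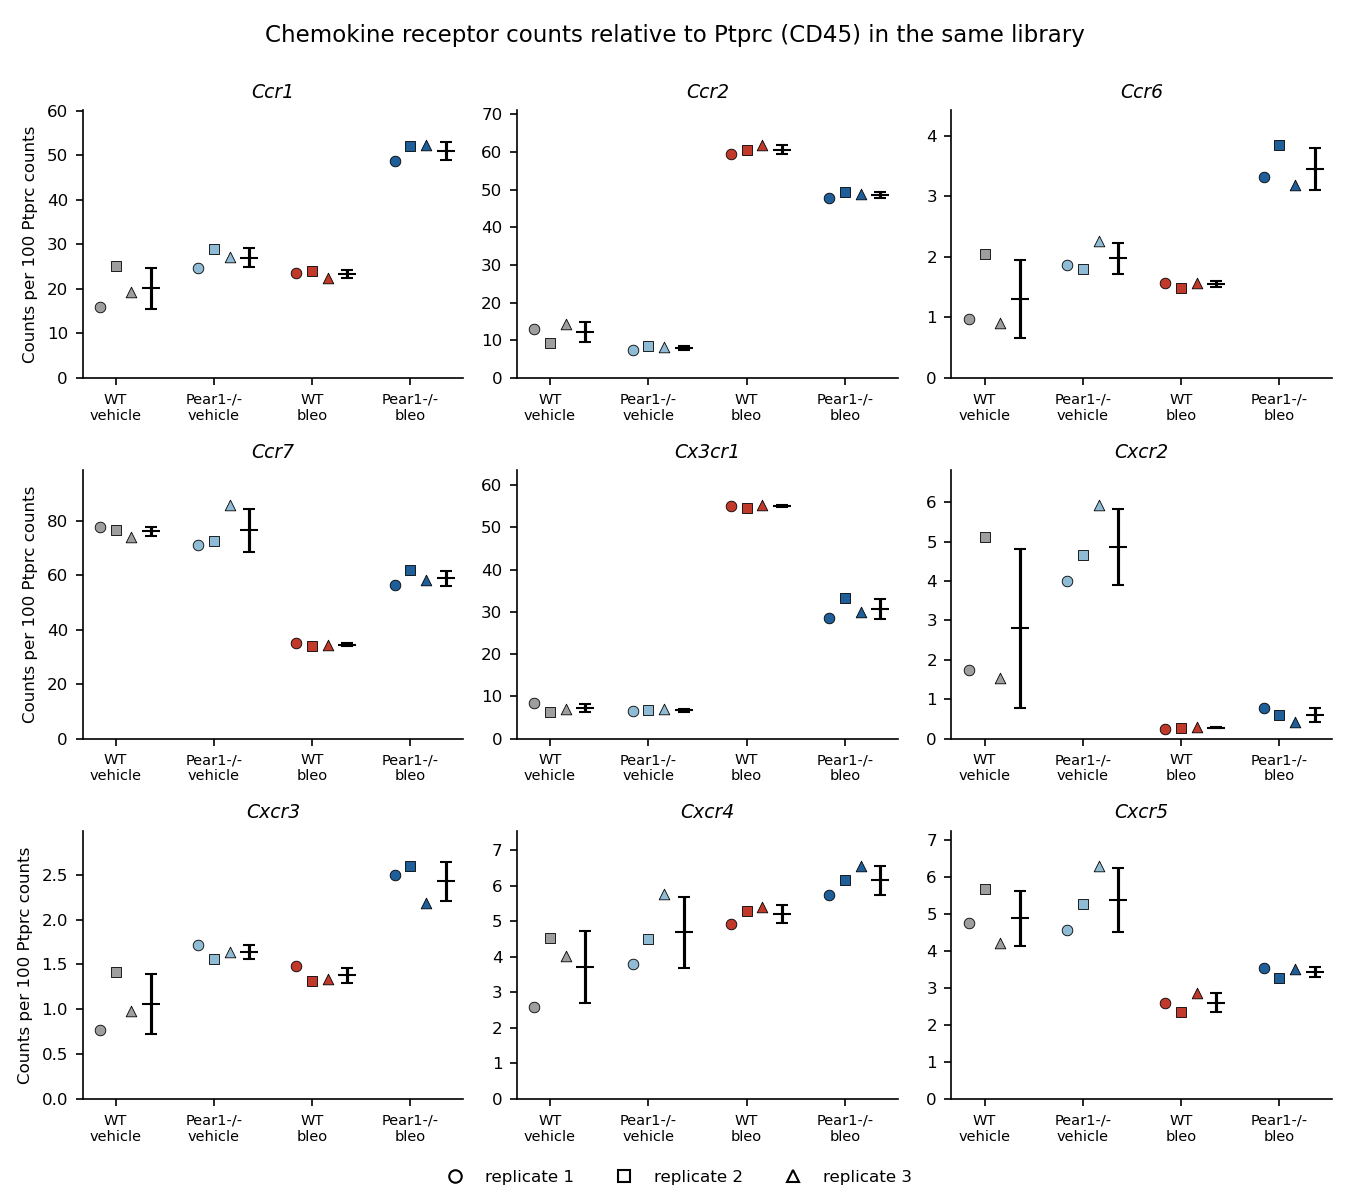
Counts of each receptor per 100 counts of Ptprc in the same library (vertical axes, linear from 0), by group (horizontal axes), where symbols are replicates and bars are the mean ± SD of 3. Ccr2 and Cx3cr1 stay highest in WT bleo, whereas the other 7 receptors are higher in Pear1-/- bleo than in WT bleo, as are 79.8% of all genes tested.

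The ligands of the receptors were followed in the same libraries, in a list of 22 of which 21 were tested. In WT bleo against WT vehicle 12 were higher and 6 lower, in Pear1-/- bleo against Pear1-/- vehicle 10 were higher and 9 lower, and in Pear1-/- bleo against WT bleo 3 were higher and 11 lower. Of all genes tested, 67.9%, 62.2% and 46.1% passed in these comparisons. The first count was 13 higher and 5 lower without WT vehicle replicate 2. For each receptor the ligand with the largest count is described. Ccl2, the ligand of Ccr2, had 725 ± 35.2 normalized counts with vehicle in WT and 689.8 ± 14.5 in Pear1-/-, 2314 ± 63.5 after bleo in WT and 1849 ± 49.5 in Pear1-/- (SD, n = 3), and was lower in Pear1-/- bleo than in WT bleo (log2 fold change -0.34 ± 0.065 SE, edgeR adjusted p = 0.000288). Ccl3, a ligand of Ccr1, had 2789 ± 133, 2678 ± 71.9, 7716 ± 177 and 1923 ± 117 normalized counts in the same order of groups. It was higher after bleo in WT (1.48 ± 0.068 SE, edgeR adjusted p = 5.52e-13) and lower in Pear1-/- (-0.47 ± 0.067 SE, edgeR adjusted p = 6.69e-06), although its receptor Ccr1 did not differ past the threshold between the bleo groups.

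Cxcl10, a ligand of Cxcr3, followed the same pattern as Ccl3, with 2051 ± 57.2, 2083 ± 57.4, 3714 ± 23.6 and 1522 ± 13.9 normalized counts. Cx3cl1, the ligand of Cx3cr1, was lower after bleo in Pear1-/- (log2 fold change -1.25 ± 0.292 SE, edgeR adjusted p = 0.00485), where its receptor rose. The log2 difference between Pear1-/- bleo and WT bleo was -0.02 ± 0.308 SE (edgeR adjusted p = 0.973), and that between WT bleo and WT vehicle was -0.50 ± 0.304 SE (edgeR adjusted p = 0.174), neither past the threshold. The latter rested on 1 library and was 0.11 ± 0.110 SE without WT vehicle replicate 2 (edgeR adjusted p = 0.379). Cxcl12, which fibroblasts secrete and Cxcr4 binds, was higher in Pear1-/- bleo than in WT bleo (3982 ± 19.2 against 2379 ± 73.3 normalized counts, log2 fold change 0.73 ± 0.188 SE, edgeR adjusted p = 0.00948), the direction opposite to Cxcr4.

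Among the remaining ligands, Cxcl2, a ligand of Cxcr2, was higher in WT bleo than in WT vehicle (log2 fold change 0.92 ± 0.198 SE, edgeR adjusted p = 0.00245; 1.33 without WT vehicle replicate 2) while Cxcr2 fell. Cxcl13, the ligand of Cxcr5, was higher after bleo in WT (1.35 ± 0.162 SE, edgeR adjusted p = 7.22e-07) and in Pear1-/- (0.99 ± 0.152 SE, edgeR adjusted p = 1.83e-05). Ccl20, the ligand of Ccr6, was low throughout, at 10.9 to 26.4 normalized counts in WT vehicle and 0.953 to 1.78 in Pear1-/- bleo. Ccl21a, a ligand of Ccr7 whose near-identical copies can share its reads, is uncertain for that reason. Its log2 fold change after bleo in WT was -0.09 (edgeR adjusted p = 0.769) and 0.48 without WT vehicle replicate 2 (edgeR adjusted p = 0.0184). It had 55.3 ± 6.75 normalized counts in Pear1-/- bleo and 76.9 ± 9.82 in WT bleo (edgeR adjusted p = 0.134).

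Inside the cell, chemokine receptors act through Gi proteins and are switched off by receptor kinases and arrestins. Of 20 such signalling partners, 16 were higher and 1 lower in WT bleo than in WT vehicle, with a median log2 fold change of 1.28. Without WT vehicle replicate 2 the counts were 16 higher and 2 lower. By more than 2-fold, 12 were higher (13 without that library, with Grk6, a receptor kinase, at 1.09 against 0.82). The value of Rac2, one of the 12, was 1.08 with that library and 1.57 without it. In Pear1-/- bleo against WT bleo 16 were lower and 1 was higher, with a median of -0.78. Of all genes tested, 31.4% were higher in the former comparison and 24.0% lower in the latter. The 7 leukocyte markers moved the same way, all higher in the former and all lower in the latter, and their part in these counts was not tested. The 12 were Gnai2 and Gng2 (G protein subunits), Pik3cg and Pik3r5 (a phosphoinositide 3-kinase driven by these receptors), Plcb2 (a phospholipase C), Arrb2 (an arrestin), Grk2 and Grk3 (receptor kinases), Rgs1 and Rgs2 (which shorten G protein signals), and Rac2 and Was (which act on the actin skeleton). Arrb2 had 253 ± 38.6, 306 ± 22.9, 1570.2 ± 20.9 and 776 ± 10.9 normalized counts in the order used for Ccl3, and Gnai2 had 687 ± 87.7, 856 ± 65.3, 3403 ± 70.4 and 1571 ± 56.3. Of the 12, Rgs2 alone did not pass between the bleo groups (log2 fold change -0.14 ± 0.086 SE, edgeR adjusted p = 0.184).

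Of 13 further chemokine receptors, 11 were tested, of which 3 were higher and 5 lower in WT bleo than in WT vehicle, and 4 were higher and 3 lower in Pear1-/- bleo than in WT bleo. Of all genes tested, 67.9% and 46.1% passed in these comparisons. The former count was 3 higher and 7 lower of 12 tested without WT vehicle replicate 2, where Cxcr6 passed (log2 fold change -0.64, edgeR adjusted p = 0.000166). The 6 whose log2 CPM averaged 3 or more went different ways. Ccrl2, a receptor-like protein that presents chemerin, had 3796 ± 286, 4204 ± 23.6, 12839 ± 17.0 and 6458 ± 66.6 normalized counts in that order of groups, and was lower in Pear1-/- bleo than in WT bleo (edgeR adjusted p = 1.30e-10). Ccr10 went the other way, from 218 ± 19.7 in WT vehicle to 15.8 ± 4.67 in WT bleo, and had 140.1 ± 6.64 in Pear1-/- bleo (log2 fold change 3.11 ± 0.193 SE against WT bleo, edgeR adjusted p = 1.87e-10). Ackr3 and Ackr2, which take up chemokines without signalling through G proteins, were higher in Pear1-/- bleo than in WT bleo (0.49 ± 0.094 SE and 0.76 ± 0.144 SE, edgeR adjusted p = 0.000313 and 0.000257), and Xcr1 and Cxcr6 were lower (-0.87 ± 0.119 SE and -1.12 ± 0.235 SE, edgeR adjusted p = 6.58e-06 and 0.000695).

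The genes most like each receptor over the 12 libraries were found by Pearson's r of log2 CPM, as a description. The libraries fall into 4 groups and share their normalization, so high values are common. Closest to Ccr2 were Apobec1, C1qa and Pld4 (r between 0.998 and 0.999), and closest to Cx3cr1 were Clec4a3, Myo1f and Tmsb4x (each 0.999 or 0.998). Close to Cxcr5 were Son and Use1 (r of 0.963 and 0.958), to Ccr7 Car4, Igkv12-89 and Il16 (between 0.979 and 0.989), and to Cxcr2 Irf1, Herpud1 and Rnf122 (between 0.985 and 0.989). Hacd2 and Irf7 were closest to Ccr1, Litaf, Il4ra and Rpl14 to Ccr6, Bloc1s2, Litaf and Rap1a to Cxcr3, and Tnfaip2, Gsdmd and Usf1 to Cxcr4, with r between 0.976 and 0.992.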

How the data were processed

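RNA of sorted Cd140a+ lung cells was made into full-length cDNA with the SMART-Seq v4 kit. The authors aligned the reads to GRCm38 (mm10) with HISAT2 and deposited read counts of 40760 genes per library (6702948 to 10447101 counts in all). The counting program is not given in the sources used here. The deposited normalized table is signal on a linear scale, each count divided by a DESeq2 size factor of its library. Per the labels, samples form 4 groups of 3. Every row named a gene.

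Counts were tested with edgeR 4.0.16 (quasi-likelihood, robust, TMM, one mean per group, two-sided), with Benjamini-Hochberg adjustment over the 17418 genes that passed filterByExpr, all 9 receptors among them. A call is an adjusted p under 0.05. The study's criteria add a fold change above 2. The fit was tested on simulated data. SE is the log2 fold change divided by the square root of F. limma 3.58.1 (pseudocount 1) and DESeq2 1.42.0 were alternatives, as were other scalings, no filter, fewer groups, a replicate block and leaving out each library. The fit without the robust estimate, and the fit of the gene lists without WT vehicle replicate 2, were added after seeing the data. CPM uses library totals. Exon lengths come from GENCODE M21, promoters from RefSeq (GRCm38.p6).

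All 9 receptors are described, with the 3 genes most like each (mean log2 CPM of at least 3, of which 1 for Ccr1 and 1 for Cxcr5 are not reported here), other receptors with that level, the largest ligand of each receptor, and partners past 2-fold in WT. The receptors, lists and tests were chosen with earlier results of these data known. Counting error limits the lowest receptors, and 3 counts correspond to 0.287 to 0.448 CPM. Pairs of libraries of one group differed by 1.35 to 1.49 (WT bleo), 1.37 to 1.47 (Pear1-/- bleo), 1.44 to 4.82 (Pear1-/- vehicle) and 1.58 to 21.8 (WT vehicle) in chi-square per degree of freedom, where 1 is counting noise alone.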

Additional observations from a re-analysis of the deposited data

Results flagged for a closer look

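For 6 receptors the log2 fold change after bleo differed between the genotypes by the interaction test of edgeR (Pear1-/- minus WT). Of all genes tested, 37.1% passed this test and 19.3% were negative. The difference was -1.13 for Ccr2 (adjusted p = 3.69e-07), -0.62 for Ccr7 (adjusted p = 0.000358), -2.14 for Cx3cr1 (adjusted p = 8.18e-11), -1.15 for Cxcr3 (adjusted p = 0.00491), -1.43 for Cxcr4 (adjusted p = 0.000573) and -1.09 for Cxcr5 (adjusted p = 0.000669). For Ccr2 and Cx3cr1, both genotypes rose after bleo and WT rose further. For Cxcr3 and Cxcr4, the rise passed the threshold in WT, and for Ccr7 and Cxcr5 the fall passed it in Pear1-/-. Leukocyte markers moved beside these values: the interaction was negative and past the threshold for all 7 leukocyte markers and all 8 monocyte and macrophage markers, with medians of -1.19 and -1.09 on the log2 scale. Their part in the receptor values was not tested.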

How the results depend on the processing

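The counts of receptors past the threshold in either direction after bleo, between the bleo groups and in the interaction stayed within 1.5 times of the values given under every alternative. By direction, the 4 higher in Pear1-/- after bleo were 2 without Pear1-/- vehicle replicate 3 and 3 without any 1 other library of those groups. The count between the vehicle groups did not: it was 0 with limma (6 at an unadjusted p under 0.05), 5 with no filter, 1 without the robust estimate, 0 by edgeR with only the 2 groups (3 at an unadjusted p under 0.05), and between 0 and 8 when 1 library was left out. The cause was not tested, except that a fit with fewer groups or libraries has fewer samples. Over all genes, that comparison gave 1261 calls, 33 with limma, 5676 with no filter, 784 without the robust estimate, 0 by edgeR with only the 2 groups (3189 at an unadjusted p under 0.05), 11281 without WT vehicle replicate 2 and 0 without any other vehicle library (2961 to 5876 at an unadjusted p under 0.05), and WT bleo against WT vehicle gave 19714 with no filter against 11834. Between the bleo groups, the log2 differences of Ccr6 and Cxcr2, neither past the threshold, ranged from -0.10 to 0.0056 and from -0.29 to 0.15 when 1 library was left out, and were positive without Pear1-/- bleo replicate 3. In Pear1-/- after bleo, Ccr6 lost its call with DESeq2 (adjusted p = 0.0819) and limma (adjusted p = 0.118). The replicate numbers did not pair the libraries: over 18 same-numbered pairs the correlation of deviations lay between -0.161 and 0.0997. Fitted with a replicate block, 3 receptors passed between the vehicle groups. The count over all genes in that fit is not given here, so the 3 cannot be set against it. With the block, Ccr1 passed between the vehicle groups (edgeR adjusted p = 0.0487) and in the interaction (edgeR adjusted p = 0.0387), while the block changed no other call of a receptor. At 15 to 30 counts per bleo library, Cxcr2 could not be resolved between the bleo groups.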
